A study of Arabidopsis thaliana with 8 samples.

Results

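The RPS6 cluster is a group of genes on the long arm of chromosome 5 of Arabidopsis thaliana that encode TIR-NLR immune receptors. Its 7 members were taken by locus identifier from a table of 28642 loci. They are RPS6 (AT5G46470, also called SMN1), AT5G46260, AT5G46270, AT5G46450, AT5G46490, VICTL (AT5G46510) and VICTR (AT5G46520). The reference annotation names 103 loci as TIR-NBS-LRR genes, and all 7 members are among them.

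A TIR-NLR receptor joins a TIR domain, which is an enzyme that cleaves NAD+, to a nucleotide-binding domain and a stretch of leucine-rich repeats. On recognition of a pathogen effector it signals through EDS1 and its partners to helper NLRs, and uncontrolled activity of such receptors stunts the plant. RPS6 recognises the effector HopA1 of Pseudomonas syringae, and it is also required for the autoimmunity of plants whose MEKK1-MPK4 kinase cascade is disrupted. VICTR was found through natural variation in the root response to a synthetic small molecule, and VICTL is its neighbouring homologue. No role is given here for the other 4 members beyond their annotation as TIR-NLR genes.

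Poly(A) RNA was sequenced from whole Landsberg erecta seedlings at 14 days of age. The 4 groups were smn2 homozygous mutants treated with 0.1 µM flg22 for 4 h, smn2 at 0 h, wild type (WT) at 4 h and WT at 0 h, with 2 biological replicates each. The peptide flg22 is the part of bacterial flagellin that plants perceive, and SMN2 is the gene of HEN2, a nuclear RNA helicase of the exosome decay pathway (background knowledge). No mock-treated seedlings at 4 h were analysed here, so a 4 h difference combines flg22 with time and handling. One library of each group came from sequencing run 910 and one from run 918. Run and biological replicate coincide, so differences between runs and between replicates cannot be told apart.

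Libraries held 6856882 to 15791296 gene reads, and 3 reads corresponded to 0.19 to 0.438 counts per 1000000 reads (CPM). Ribosomal RNA loci took 26.7% to 35.8% of the reads in run 910 and 40.3% to 44.4% in run 918. HEN2 was lower in smn2, with a mean log2 difference over both times of -1.84 ± 0.14 (SE, edgeR adjusted p = 0.000318), so the labels and the targeted gene go together. Of 4 flg22 marker genes 4 were higher at 4 h in each genotype. All 4 shoot marker genes and all 4 root marker genes had reads in every library, and none of the 8 was called between genotypes by edgeR or DESeq2. Their levels differed between the times, with values beside the 4 h comparison. In whole seedlings, fewer cells that express a gene and less RNA per cell cannot be told apart.

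All members lie on chromosome 5 between the start of AT5G46260 and the end of VICTR, at chr5:18759102-18872415 in TAIR10. AT5G46260 (chr5:18759102-18763358) and AT5G46270 (chr5:18764349-18769090) are on the minus strand. The other 5 are on the plus strand: AT5G46450 (chr5:18835618-18839546), RPS6 (chr5:18842701-18849741), AT5G46490 (chr5:18850776-18853843), VICTL (chr5:18860451-18867013) and VICTR (chr5:18867767-18872415). The flagellin receptor gene FLS2 lies in the interval between AT5G46270 and AT5G46450. RPS6 has the longest exon sequence of the 7 at 4849 bases, in 11 exons. Its coding sequence is 3384 bases long, and 5 of its 10 introns, 66.9% of its intron bases, come after the stop codon. These counts use 1 RefSeq transcript per gene, cut to the gene bounds of the deposited counts. Within those bounds VICTL has 3 of its 8 introns after the stop codon, AT5G46490 has 1 of 3, and the other 4 members have none. In AT5G46260 and AT5G46450 the bounds end at the stop codon, so no later intron could be counted. The RefSeq genes of both run further.

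The block around the P-loop shows how closely the members are related at one functional site. The P-loop is the nucleotide-binding motif at the front of the NB domain. Each line gives 60 coding bases, 5′ to 3′ in the direction of the gene, from the TAIR10 sequence in RefSeq, and the capitals mark the 24 bases of the 8 P-loop codons.
RPS6, chr5:18843419-18843478: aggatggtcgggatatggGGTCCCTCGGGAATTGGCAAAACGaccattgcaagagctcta
AT5G46450, chr5:18836333-18836392: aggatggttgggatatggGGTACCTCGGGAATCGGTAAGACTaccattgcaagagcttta
AT5G46270, chr5:18768087-18768146: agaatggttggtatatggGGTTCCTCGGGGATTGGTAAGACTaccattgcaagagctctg
AT5G46260, chr5:18762601-18762660: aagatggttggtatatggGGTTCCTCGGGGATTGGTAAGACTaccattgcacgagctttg
AT5G46490, chr5:18851547-18851606: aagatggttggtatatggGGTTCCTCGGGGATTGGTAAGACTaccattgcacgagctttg
VICTL, chr5:18861155-18861214: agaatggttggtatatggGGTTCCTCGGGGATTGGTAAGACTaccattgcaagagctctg
VICTR, chr5:18868541-18868600: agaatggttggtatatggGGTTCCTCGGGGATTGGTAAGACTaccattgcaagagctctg

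AT5G46270, AT5G46260, AT5G46490, VICTL and VICTR had the same 24 P-loop bases. RPS6 differed from every other member at 5 of the 24, and AT5G46450 differed from the group of 5 at 3. Over the 60 bases AT5G46260 and AT5G46490 were identical, and so were AT5G46270, VICTL and VICTR. Over whole coding sequences RPS6 was closest to AT5G46450, with 77.4% of aligned bases identical, and had 72.2% to 73.2% with the other 5. VICTL and VICTR shared 95.8%, AT5G46260 and AT5G46490 shared 89.8%, and AT5G46260 and AT5G46270 shared 86.6%. AT5G46270 was identical to VICTL and VICTR in the block. Over aligned coding bases it shared 79.7% with VICTL and 82.7% with VICTR, below its values with AT5G46260 and AT5G46490 (85.9%). The coding sequence of AT5G46490 is only 1986 bases long, of which 1832 were aligned. As a share of the shorter coding sequence, AT5G46270 had 82.3% with VICTR and 79.2% with AT5G46490. These letters are those of the reference accession, and Landsberg erecta may differ from them.

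The members spanned a wide range of levels, compared here as exon reads divided by exon length in kilobases and by TMM-scaled gene reads, in units of 1000000 gene reads. Over the 8 libraries RPS6 had a median level of 18.4 (range 10.7 to 24.9) and AT5G46450 one of 16.7 (11.7 to 23.7). AT5G46270 followed at 6.61 (5.49 to 8.26) and AT5G46260 at 4.97 (3.77 to 6.73). AT5G46490 had 1.76 (0.952 to 2.14), VICTR 1.16 (0.607 to 1.84) and VICTL 0.487 (0.345 to 0.923). By mean level RPS6 ranked 8 and AT5G46450 ranked 10 among the 103 TIR-NBS-LRR loci, whose median level was 3.84, while VICTL ranked 85. Reads of Landsberg erecta were counted on the TAIR10 sequence of the reference accession. The part of sequence differences between these accessions in the levels was not tested.

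The order of the members was the same from rank 3 to rank 4 in all 4 groups, with AT5G46270 above AT5G46260, although their libraries overlapped in smn2 at 4 h. At the top the order depended on the time. In smn2 at 4 h AT5G46450 averaged 21.7 ± 2.84 and RPS6 17.7 ± 3.01 (SD, n = 2), with overlapping libraries, and in smn2 at 0 h RPS6 averaged 22.4 ± 3.53 and AT5G46450 13.9 ± 2.26. In WT at 4 h AT5G46450 averaged 18.8 ± 1.22 and RPS6 13.8 ± 4.46, and in WT at 0 h RPS6 averaged 18.8 ± 3.03 and AT5G46450 12.2 ± 0.70. In those last 3 groups the libraries of both genes did not overlap. At the bottom, AT5G46490 and VICTR overlapped at 0 h in both genotypes, and VICTL was lowest in every group.

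**Figure D1:**
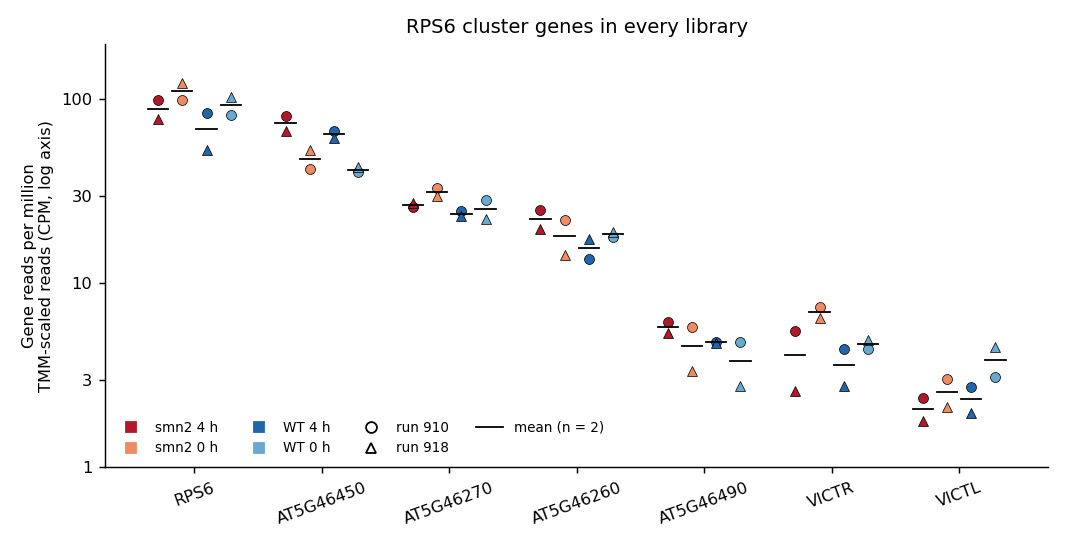
Gene reads as TMM-scaled CPM (log axis) of each cluster gene in each of the 8 libraries, grouped by genotype and time; circles are run 910, triangles run 918, and bars are the means of 2 libraries. RPS6 lies between 52.9 and 123 CPM and VICTL between 1.79 and 4.54 CPM.

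The first comparison set smn2 against WT. Among the 7 members 6 had a positive mean log2 difference over both times, VICTL being the exception, but no member passed the test. Over all loci tested 9144 of 19649 had a positive value, and 46 of the 83 other TIR-NBS-LRR loci tested did. In the TIR-NLR clusters RPP1 and RPP4 it was 4 of 4 and 8 of 8. Gene reads (exon plus intron) are given from here on as TMM-scaled CPM.

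RPS6 had 98.9 and 78.0 CPM in smn2 at 4 h, against 84.5 and 52.9 CPM in WT at 4 h. At 0 h it had 99.3 and 123 CPM in smn2, against 82.7 and 104 CPM in WT. The libraries of both genotypes overlapped at each time. Set against WT of the same run, smn2 was higher in 4 of 4 pairs, by 0.23 and 0.56 on the log2 scale at 4 h and by 0.26 and 0.25 at 0 h. The fitted log2 difference was 0.36 ± 0.27 at 4 h, with an edgeR adjusted p of 0.788. At 0 h it was 0.25 ± 0.26, with an adjusted p of 0.857. Their mean was 0.31 ± 0.19 (adjusted p = 0.557), with a 95% interval of -0.11 to 0.73 that corresponds to 0.926-fold to 1.65-fold.

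The closest homologue, AT5G46450, had 80.8 and 67.4 CPM in smn2 at 4 h, against 67.7 and 61.5 CPM in WT. At 0 h it had 41.99 and 53.1 CPM in smn2, against 40.2 and 43.0 CPM in WT. The genotypes overlapped at each time, and the mean log2 difference was 0.20 ± 0.14 (adjusted p = 0.624).

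AT5G46270 had 26.1 and 27.5 CPM in smn2 at 4 h, against 24.6 and 23.2 CPM in WT. At 0 h it had 33.1 and 29.9 CPM in smn2, against 28.3 and 22.5 CPM in WT. The smn2 libraries lay above the WT libraries at each time without overlap, by a mean log2 of 0.23 ± 0.14 that did not pass (adjusted p = 0.541).

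AT5G46260 had 25.1 and 19.8 CPM in smn2 at 4 h, against 13.6 and 17.3 CPM in WT. At 0 h it had 22.0 and 14.3 CPM in smn2, against 17.99 and 19.1 CPM in WT. The genotypes were apart at 4 h (log2 0.54 ± 0.26, adjusted p = 0.663) and overlapped at 0 h (-0.02 ± 0.26, adjusted p = 0.995). The difference between these 2 values, 0.56 ± 0.37 in log2, was not called either (adjusted p = 1, 95% interval -0.27 to 1.39).

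The other 3 members had few reads, 11 to 90 per library. VICTR had 5.54 and 2.60 CPM in smn2 at 4 h, against 4.41 and 2.78 CPM in WT. At 0 h VICTR had 7.46 and 6.52 CPM in smn2, against 4.40 and 4.94 CPM in WT, apart by a log2 of 0.59 ± 0.37 (adjusted p = 0.691). VICTL had 2.39 and 1.79 CPM in smn2 at 4 h, against 2.73 and 1.98 CPM in WT, and 3.02 and 2.12 CPM in smn2 at 0 h, against 3.11 and 4.54 CPM in WT. Its mean log2 difference was -0.35 ± 0.30 (adjusted p = 0.694), and that of VICTR was 0.40 ± 0.28 (adjusted p = 0.612). AT5G46490 ranged from 3.34 to 6.19 CPM in smn2 and from 2.77 to 4.83 CPM in WT (log2 0.27 ± 0.27, adjusted p = 0.742).

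In all, edgeR called 0 of 7 members for smn2 against WT at 4 h, where it called 0.31% of 19649 loci. It called 0 of 7 at 0 h, where 1.0% of loci were called, and 0 of 7 for the mean of both times, where 1.8% were called. At unadjusted p under 0.05 the count was also 0 of 7 in each, and DESeq2 called 0. The median log2 of the 7 members was 0.26 for the mean of both times, and that of all loci tested was -0.02. The difference of the 4 h changes (smn2 minus WT) called 0 of 7 members and 0.0% of all loci, with 0 members at unadjusted p under 0.05 and 0 by DESeq2. The intervals still allow sizeable differences: for VICTR the mean extends to 2.02-fold, and for VICTL down to 0.497-fold.

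**Figure D2:**
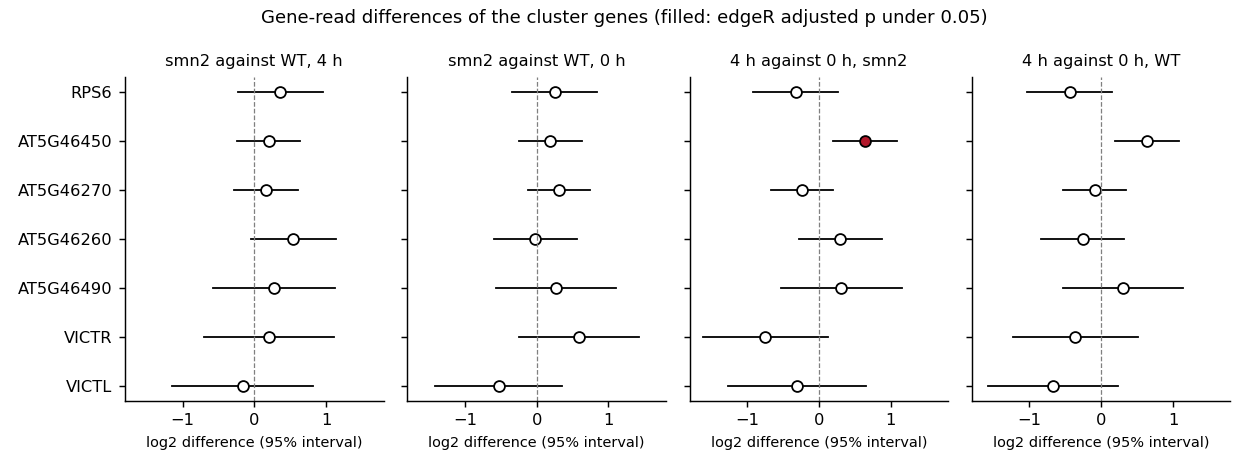
Log2 differences in gene reads of the cluster genes with 95% intervals from the edgeR fit; from the left, the panels give the genotype difference at 4 h, the genotype difference at 0 h, and the 4 h difference in smn2 and in WT. Both genotype panels hold open points only, and the single filled point is AT5G46450 at 4 h in smn2, at 0.64.

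The second comparison was 4 h of flg22 against 0 h. AT5G46450 rose in smn2, to 80.8 and 67.4 CPM at 4 h against 41.99 and 53.1 CPM at 0 h, a log2 change of 0.64 ± 0.20 or 1.56-fold (edgeR adjusted p = 0.0444). In WT it had 67.7 and 61.5 CPM at 4 h, against 40.2 and 43.0 CPM at 0 h, a log2 difference of 0.64 ± 0.20 that missed the threshold (adjusted p = 0.0544) and passed it with the run as a replicate block (adjusted p = 0.0424). The 4 h libraries lay above the 0 h libraries without overlap in both genotypes, and the changes of both genotypes differed by 0.01 ± 0.28. The smn2 call rests on a narrow margin. It was lost with DESeq2 (adjusted p = 0.0786), with RLE normalization (0.0503) and with the smn2 libraries alone (0.0933). It was also lost without either smn2 library at 4 h (0.228 for run 910, 0.0837 for run 918) or the run 910 library of smn2 at 0 h (0.222). The same held without any 1 of the WT libraries, with 0.0667 and 0.062 for those at 4 h and 0.0646 and 0.064 for those at 0 h.

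AT5G46450 was 1 of 7 members called at 4 h in smn2, where 21.5% of all loci were called, and DESeq2 called 0. In WT edgeR called 0 of 7, with AT5G46450 the only member at unadjusted p under 0.05 and 0 by DESeq2, where 16.7% of loci were called. The sequence before this gene is printed because AT5G46450 was the only member past the threshold at 4 h. The 250 bases before its annotated RefSeq start are given on the plus strand, with capitals for TTGAC, the core of the W-box that WRKY transcription factors bind, on either strand.
AT5G46450 upstream, chr5:18835355-18835604: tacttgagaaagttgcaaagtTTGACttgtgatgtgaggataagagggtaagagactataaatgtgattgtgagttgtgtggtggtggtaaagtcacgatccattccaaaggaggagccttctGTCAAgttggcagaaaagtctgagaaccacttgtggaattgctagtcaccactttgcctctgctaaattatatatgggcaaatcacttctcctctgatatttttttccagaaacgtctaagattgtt
RPS6 upstream, chr5:18842480-18842552: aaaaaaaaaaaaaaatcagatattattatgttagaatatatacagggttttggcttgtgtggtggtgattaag

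The AT5G46450 window held TTGAC once on each strand. Of the 27443 protein-coding nuclear genes 44.9% held at least 1 TTGAC in the same window and 14.1% held 2 or more, counted on both strands and without regard to neighbouring genes. RPS6 follows its neighbour AT5G46460 after 73 bases, printed in full above, which hold no TTGAC. A window of that length held one at 15.2% of genes. In the 250-base windows of the other members VICTL had 5, AT5G46260 and AT5G46270 had 1 each, and AT5G46490 and VICTR had 0. These are matches of letters only.

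Tissue markers moved with the time. The summed level of 4 shoot markers was 5153.6 and 3358.8 CPM in smn2 at 4 h, against 7425.0 and 9511.1 CPM at 0 h, and 6152.8 and 3558.6 CPM in WT at 4 h, against 7690.5 and 9435.0 CPM at 0 h. In smn2 edgeR called 2 of the 4 lower, RCA, the Rubisco activase gene (-1.69 ± 0.38, adjusted p = 0.0125, lost without run 918 at 4 h, 0.116) and CA1, a carbonic anhydrase gene (-1.11 ± 0.34, adjusted p = 0.044). The CA1 call was lost without any 1 smn2 library (0.053 to 0.245) or either WT library at 0 h (0.0526 and 0.0521). In WT edgeR called 0 of 4, with 1 at unadjusted p under 0.05 and 1 by DESeq2. The summed level of 4 root markers was 254.7 and 183.6 CPM in smn2 at 4 h, against 95.1 and 103.3 CPM at 0 h, and 153.9 and 135.1 CPM in WT at 4 h, against 135.8 and 136.2 CPM at 0 h. The sum was mostly SULTR1;2 in every library of both genotypes. SULTR1;2, a root sulfate transporter gene, rose in smn2 (1.35 ± 0.25, adjusted p = 0.00478). COBL9, a root hair gene, fell in WT (-1.48 ± 0.44, adjusted p = 0.0479), a call lost without run 910 at 0 h (0.31), either WT library at 4 h (0.212 and 0.141) or either smn2 library at 4 h (0.0676 each). In smn2 COBL9 had -1.40 ± 0.48 (edgeR adjusted p = 0.0647), and the root markers EXPA7 and PIN2 had -0.66 ± 0.72 and 0.22 ± 0.38. DESeq2 called 1 of the 4 root markers higher and 1 lower in smn2. The part of tissue make-up in the 4 h values of AT5G46450 and the other members was not tested.

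RPS6 had a lower mean at 4 h than at 0 h in both genotypes, 88.4 ± 14.8 against 111 ± 16.6 CPM in smn2 and 68.7 ± 22.4 against 93.2 ± 14.7 CPM in WT (SD, n = 2 each). The log2 differences were -0.33 ± 0.26 in smn2 (adjusted p = 0.421) and -0.44 ± 0.26 in WT (adjusted p = 0.300), neither of which passed. The runs gave unequal values. In run 918 the difference was -0.65 in smn2 and -0.97 in WT, and in run 910 it was -0.01 in smn2 and 0.03 in WT. The part of the run, or of the biological replicate that shares its number, in this difference was not tested.

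VICTR had a log2 difference of -0.75 ± 0.39 in smn2 (adjusted p = 0.205) and -0.36 ± 0.39 in WT (adjusted p = 0.582), with run 918 again below run 910. VICTL had -0.31 ± 0.43 in smn2 (adjusted p = 0.664) and -0.67 ± 0.40 in WT (adjusted p = 0.295). AT5G46490 had 0.31 ± 0.38 in smn2 and 0.31 ± 0.37 in WT, and AT5G46270 had -0.24 ± 0.20 in smn2 and -0.09 ± 0.19 in WT. AT5G46260 was the member with opposite signs, 0.30 ± 0.26 in smn2 and -0.26 ± 0.26 in WT.

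**Figure D3:**
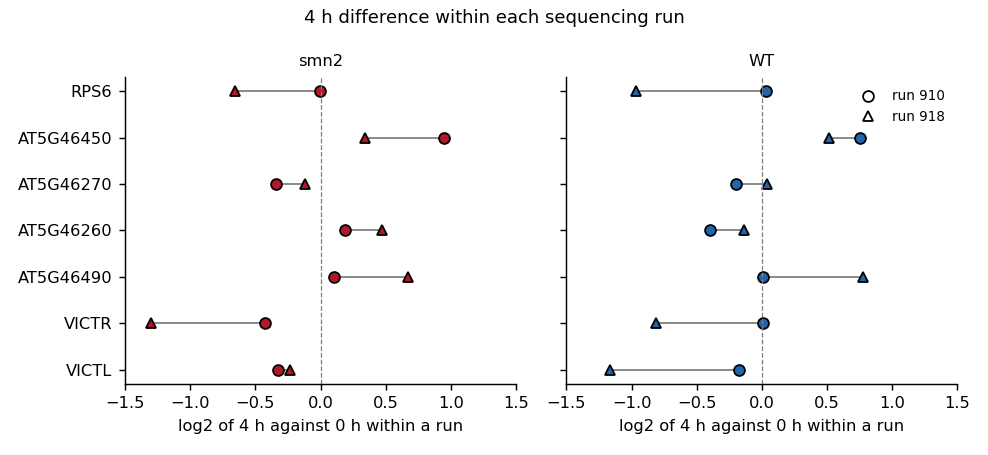
Log2 ratio of CPM at 4 h against 0 h within each sequencing run, for smn2 (left) and WT (right); circles are run 910, triangles run 918, joined by a line for each gene. AT5G46450 is above 0 in 4 of 4 pairs, while RPS6 is near 0 in run 910 and below it in run 918.

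The third comparison used intron and junction reads. RPS6 had 23 and 14 intron reads in smn2 at 4 h, against 21 and 9 in WT at 4 h. At 0 h it had 31 and 12 intron reads in smn2, against 37 and 21 in WT. As a share of gene reads these were 2.53% and 2.92% in smn2 at 4 h, against 2.61% and 2.25% in WT. At 0 h they were 2.62% and 1.48% in smn2, against 2.40% and 2.002% in WT, and the genotypes overlapped at both times. The log2 difference in intron relative to exon reads of RPS6 between smn2 and WT was 0.13 ± 0.51 at 4 h, with an edgeR adjusted p of 0.973. It was -0.10 ± 0.48 at 0 h (adjusted p = 0.983), and the mean of both times was 0.02 ± 0.31 (adjusted p = 0.993). The 95% interval of that mean ran from 0.645-fold to 1.58-fold. This fit was not centred on 0. Over all loci tested the median log2 was 0.26 for the mean of both times, 0.31 at 0 h and 0.23 at 4 h.

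AT5G46270 and AT5G46450 were the other members with enough intron reads to be tested. AT5G46270 had 3 to 24 intron reads per library and a mean log2 difference in intron relative to exon reads of -0.25 ± 0.49 (adjusted p = 0.889). AT5G46450 had 3 to 16 and a difference of -0.31 ± 0.46 (adjusted p = 0.841). Intron reads alone gave 0.01 ± 0.33 for RPS6, -0.29 ± 0.50 for AT5G46270 and -0.41 ± 0.51 for AT5G46450. The median over all loci tested was -0.06 in that fit. Of the 3 members tested 0 were called by edgeR for the mean genotype difference in intron reads, where 3.61% of 4929 loci were called (1.5% at 0 h and 0.69% at 4 h alone, again with 0 members). In intron relative to exon reads it was 0 of 3, where 2.56% of 4539 loci were called (1.08% at 0 h and 0.286% at 4 h alone, again with 0 members). At unadjusted p under 0.05 the count was 0 in each, and DESeq2 for intron reads and limma for the log ratio called 0. AT5G46260 had 0 to 9 intron reads, AT5G46490 0 to 9, VICTL 0 to 4 and VICTR 0 or 1 per library, and these 4 were not tested. Counts for whole introns do not show which of the 10 introns of RPS6 the reads came from.

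Reads across exon junctions were a larger share in RPS6 than in the 3 relatives with most reads. Of 7012 RPS6 exon reads 21.3% spanned a junction (Wilson 95% interval 20.4% to 22.3%), with 18.2% to 23.8% in single libraries. AT5G46450 had 11.8% (10.9% to 12.8%), AT5G46260 8.13% (6.84% to 9.64%) and AT5G46270 6.60% (5.62% to 7.75%). The RPS6 libraries did not overlap those of these 3 genes. RPS6 also has more annotated junctions, 2.06 per kilobase of exon against 1.19 in AT5G46450, 1.38 in AT5G46260 and 1.54 in AT5G46270. AT5G46490, with 357 exon reads, had a share of 10.9%. Its junction density is uncertain. The deposited counts list 8 exons for it, which gives 2.6 junctions per kilobase, but its nearest RefSeq transcript has only 4 exons. The part of junction density in the shares was not tested. Over the 103 TIR-NBS-LRR loci the median share was 9.24%. Among all exon reads of a library the share was higher, 22.9% to 30.3%. Between genotypes the RPS6 share was 22.6% ± 0.84 in smn2 and 22.9% ± 1.29 in WT at 4 h, and 21.7% ± 1.11 in smn2 and 20.004% ± 2.53 in WT at 0 h (SD, n = 2), with overlapping libraries at both times. Intervals on shares cover counting error only.

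**Figure D4:**
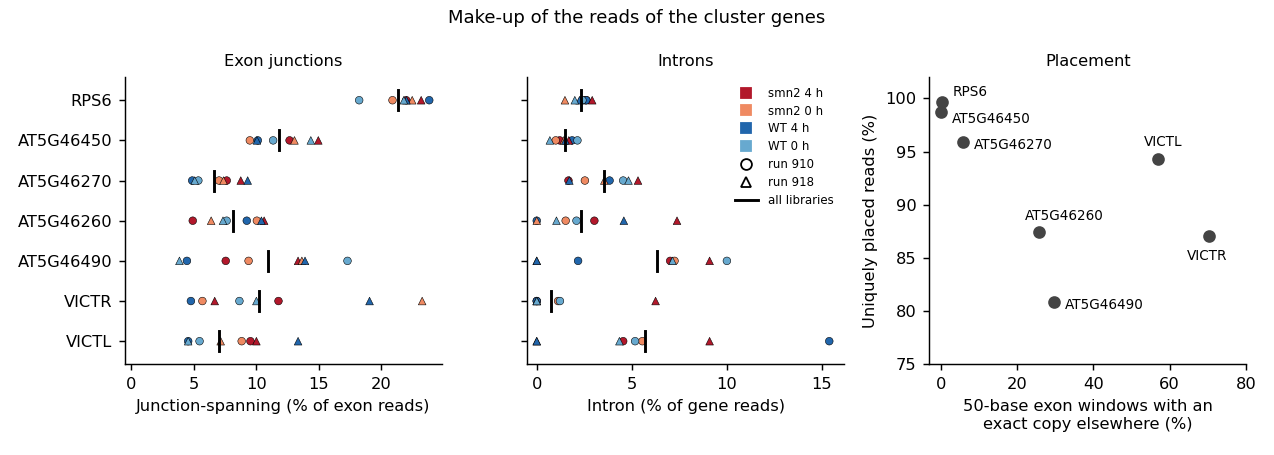
Make-up of the reads of each cluster gene; the left and middle panels give junction-spanning reads in percent of exon reads and intron reads in percent of gene reads by library (circles run 910, triangles run 918, bars all libraries together), and the right panel sets the percent of uniquely placed reads against the percent of 50-base exon windows with an exact copy elsewhere in the genome. RPS6 stands at 21.3% junction reads and 99.7% unique reads.

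Members share sequence, so reads could be split between them. Across all libraries 99.7% of RPS6 reads and 98.7% of AT5G46450 reads were uniquely placed. The share was 95.9% for AT5G46270, 94.3% for VICTL, 87.4% for AT5G46260, 87.1% for VICTR and 80.8% for AT5G46490. In the reference, 0.232% of 50-base exon windows of RPS6 had an exact copy elsewhere, and 0.0% of those of AT5G46450. The copied share was 25.8% for AT5G46260 and 29.6% for AT5G46490, most of it between these 2 genes. It was 56.9% for VICTL and 70.3% for VICTR, so these 2 had the most copied sequence but not the lowest share of unique reads. The sources used here give neither read lengths nor a placement rule, and levels of AT5G46260, AT5G46490, VICTL and VICTR are uncertain to that extent.

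The longest exact match between AT5G46490 and AT5G46260 is printed because no read inside it can be assigned to one of the pair in the reference. It is 300 bases long, lies in coding sequence and contains the P-loop codons, again in capitals. The same letters are on the minus strand at chr5:18762430-18762729 in AT5G46260.
AT5G46490, chr5:18851478-18851777: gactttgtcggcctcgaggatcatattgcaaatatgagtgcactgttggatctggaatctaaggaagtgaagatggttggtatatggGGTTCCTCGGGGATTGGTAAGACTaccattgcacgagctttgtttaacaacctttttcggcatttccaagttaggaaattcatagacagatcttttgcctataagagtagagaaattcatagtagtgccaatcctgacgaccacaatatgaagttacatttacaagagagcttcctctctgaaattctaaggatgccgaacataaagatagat
VICTL and VICTR match over 825 bases, at chr5:18863294-18864118 in VICTL and chr5:18870680-18871504 in VICTR. Their first 150 bases, with no capitals, show the stretch that both genes hold.
VICTL, chr5:18863294-18863443: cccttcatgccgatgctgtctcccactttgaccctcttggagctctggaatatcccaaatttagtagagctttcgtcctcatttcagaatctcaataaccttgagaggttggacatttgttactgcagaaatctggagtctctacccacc

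The members sit among 26 other loci within 10 kb of the span, of which 18 had enough reads to be tested. For the mean of smn2 against WT, 1 of the 18 was called, where 1.8% of all loci were called. It was U6-29, a U6 small nuclear RNA gene between AT5G46270 and AT5G46450. U6-29 had 4.35 and 1.62 CPM in smn2 at 4 h, against 0.524 and 0.0 CPM in WT, and 2.18 and 4.096 CPM in smn2 at 0 h, against 0.054 and 0.395 CPM in WT. Its log2 difference of 3.66 ± 0.71 (edgeR adjusted p = 0.0328) missed the threshold without the run 910 library of WT at 0 h (0.102), either WT library at 4 h (0.0598 and 0.0974), the run 918 library of smn2 at 0 h (0.0572) or either smn2 library at 4 h (0.161 and 0.0545). The value itself ranged from 3.13 without the run 910 library of WT at 0 h to 5.94 without that of WT at 4 h. U6-29 gave no value with uniquely placed reads or with exon reads only, as either count was too low to be tested. Whether its reads come from this U6 gene is therefore uncertain. AT5G46460, which ends 73 bases before the RefSeq start of RPS6, had a value of 0.75 that did not pass (adjusted p = 0.285). No locus of the table overlaps a member.

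**Figure D5:**
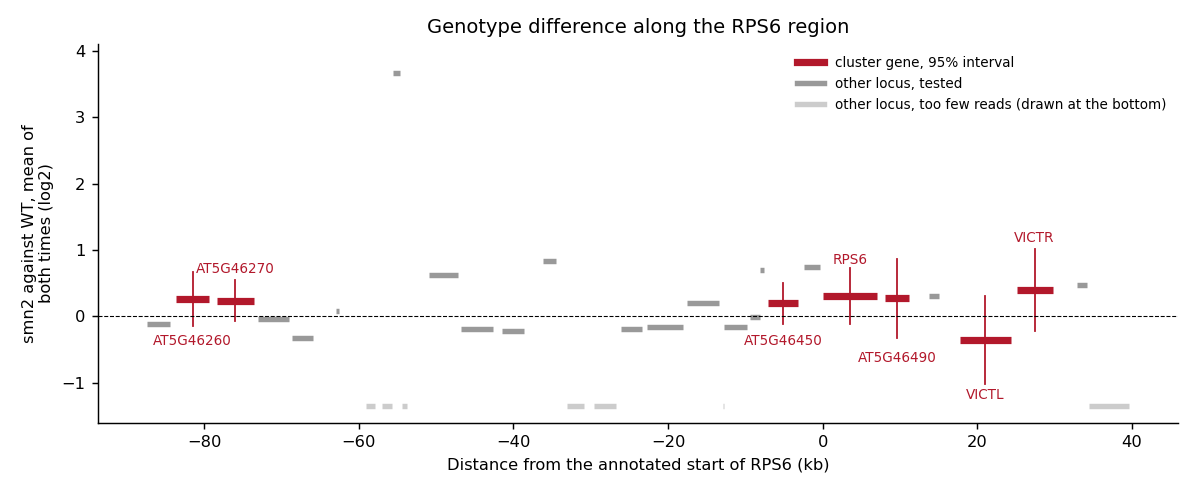
Mean log2 difference of smn2 against WT for each locus along the RPS6 region, by distance from the annotated start of RPS6 in kilobases; cluster genes are red with 95% intervals, other tested loci grey, and loci with too few reads light grey at the bottom. The 7 cluster genes lie between -0.35 and 0.40, and U6-29 is at 3.66.

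Other TIR-NLR genes give the scale for the cluster. Of the other 96 TIR-NBS-LRR loci 83 were tested, and for the mean genotype difference 5 were higher in smn2 and 1 lower (median log2 0.03). Over all loci tested, 1.8% were called for this difference. Of 4 genes of the RPP1 cluster on chromosome 3, receptors for downy mildew, 3 were higher in smn2. The fourth, AT3G44400, had 0.65 ± 0.15 and missed the threshold (edgeR adjusted p = 0.0647), but passed it with the run as a replicate block (0.0435), with DESeq2 (0.031) and with no low-count filter (0.0102). RPP1 averaged 187 CPM in smn2 and 72.1 CPM in WT at 4 h, and 366 CPM in smn2 and 139 CPM in WT at 0 h (log2 1.39 ± 0.17, edgeR adjusted p = 0.00348). AT3G44630 had 1.01 ± 0.17 (adjusted p = 0.0163), and its call was lost without the run 910 library of WT at 0 h (0.0719), either WT library at 4 h (0.0681 and 0.0906) or the run 910 library of smn2 at 4 h (0.0742). AT3G44670 had 0.72 ± 0.15 (adjusted p = 0.0429), which missed the threshold without any 1 of the 8 libraries (0.0643 to 0.186). Of 8 genes of the RPP4 cluster edgeR and DESeq2 called 0, with 1 at unadjusted p under 0.05. Whether the RPS6 cluster and the RPP1 cluster differ was not tested.

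Genes that act with the receptors were taken from lists. For the mean genotype difference edgeR called 1.8% of all loci tested. Of 12 TIR-NLR signalling genes edgeR and DESeq2 called 0 for the mean genotype difference, with 4 at unadjusted p under 0.05. EDS1, the hub of TIR-NLR signalling, had -0.67 ± 0.15 (adjusted p = 0.0677), and its partners PAD4 and SAG101 had -0.15 ± 0.17 and 0.41 ± 0.18. Of 6 genes of the MEKK1-MPK4 cascade and its guard 1 was called, SUMM2, an NLR that guards the cascade, at 1.05 ± 0.16 (adjusted p = 0.0105). SUMM2 was not called without either WT library at 4 h (0.0631 and 0.0603) or the run 910 library of smn2 at 4 h (0.0553). Of 5 exosome helicase and nonsense-mediated decay genes 1 was called, HEN2 itself.

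At 4 h the members' relatives moved in both directions. In smn2, 16 of the 83 other TIR-NBS-LRR loci tested rose and 6 fell, where 21.5% of all loci were called in either direction. In WT 10 rose and 5 fell, where 16.7% of all loci were called. RRS1, an NLR with a WRKY domain, rose in smn2 (0.96 ± 0.19, adjusted p = 0.00712) and in WT (0.87 ± 0.19, adjusted p = 0.0131, lost without the run 910 library at 0 h, 0.105, or at 4 h, 0.0988). RPS4, its partner NLR, rose in smn2 (0.79 ± 0.22, adjusted p = 0.0283), a call lost with the smn2 libraries alone (0.0613), without either at 0 h (0.0698 and 0.11) or without run 910 at 4 h (0.206). Of the RPP1 cluster 2 of 4 fell in each genotype. RPP1 had -0.96 ± 0.24 in smn2 (adjusted p = 0.0191, lost without run 910 at 0 h, 0.0636, or run 918 at 4 h, 0.151) and -0.95 ± 0.24 in WT (adjusted p = 0.026, lost without any 1 WT library, 0.0667 to 0.16). AT3G44670 had -0.82 ± 0.21 in smn2 (adjusted p = 0.0212, lost without either library at 0 h, 0.0513 and 0.0679, or run 918 at 4 h, 0.165). In WT it had -0.84 ± 0.21 (adjusted p = 0.024, lost without any 1 WT library, 0.0723 to 0.144). In the cascade list MPK4, its final kinase, rose in smn2 (1.66 ± 0.26, adjusted p = 0.00226) and in WT (1.31 ± 0.26, adjusted p = 0.00837, lost without run 918 at 0 h, 0.0561, or run 910 at 4 h, 0.0656). HEN2 rose in WT (0.66 ± 0.19, adjusted p = 0.0425), a call lost with DESeq2 (0.102), exon reads only (0.0621), no low-count filter (0.0552) or the WT libraries alone (0.0543). It was also lost without any 1 WT library (0.108 to 0.197) or either smn2 library at 4 h (0.0529 and 0.0538). Among the 12 signalling genes edgeR called 0 in smn2, with 3 at unadjusted p under 0.05 and 0 by DESeq2, and 1 in WT, the helper NLR gene NRG1.2 (-0.77 ± 0.21, adjusted p = 0.0363). The NRG1.2 call was lost with DESeq2 (0.0642) and without any 1 of the WT libraries (0.182 and 0.0814 at 0 h, 0.143 and 0.14 at 4 h).

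The pattern of RPS6 over the 8 libraries was compared with that of every other locus tested, 19648 in all, by Pearson's r of log2 CPM. The most similar was AT4G16920, a TIR-NLR gene of the RPP4 cluster (r = 0.961, rho = 0.976). AT4G16920 had 93.2 and 71.8 CPM in smn2 at 4 h, against 88.4 and 57.7 CPM in WT, and 108 and 114 CPM in smn2 at 0 h, against 81.0 and 107 CPM in WT. The next were AT1G80060 (r = 0.953), NET3C (0.952), AT4G30940 (0.952) and RIP4 (0.947), with levels of at most 11.5 CPM. Most of these levels were low: 0.0 to 1.52 CPM for NET3C, 0.794 to 1.97 CPM for AT1G80060 and 0.794 to 4.55 CPM for RIP4. Within the cluster VICTR was the most similar to RPS6 (r = 0.815, rank 262) and AT5G46490 the least (r = -0.345, rank 13649). All points share the same 8 libraries and runs, and these correlations are descriptions.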

How the data were processed

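RNA from 8 libraries (4 groups, 2 biological replicates each) was counted per locus. Per the file headers, the authors deposited unnormalized read counts per gene, exon, intron and exon junction, as total and uniquely placed reads, from 2 Ion Proton runs. The numbers 910 and 918 end the run names in the headers and open the sample titles, so each marks both a run and a replicate. Per the submitters' processing notes the build is TAIR10; the sources used here name no aligner, annotation release or strand setting, so overlapping and antisense reads cannot be told apart. Another 84 per-library columns (such as normalized values) were not used.

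Samples were grouped by title. Gene counts were tested with edgeR 4.0.16 (R 4.3.3; quasi-likelihood, TMM, filterByExpr, 1 coefficient per group, 4 residual degrees of freedom), adjusted by Benjamini-Hochberg over all 19649 loci tested in each of 6 comparisons, threshold 0.05. Intron counts (4929 loci) had their own fit. Intron relative to exon counts (4539 loci) were fitted together, with a coefficient per library and intron coefficients per group. Values after ± are SE for log2 values and SD otherwise. Within-run ratios add 0.5 reads. P-values measure the spread between these replicates. Raw gene counts of the replicates, scaled by library totals only, differed beyond sampling noise (chi-square per degree of freedom 24.2 to 51.3). That value was taken without TMM and with ribosomal RNA loci included, and their part in it was not tested.

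Alternatives were RLE, no filter, unique reads, exon reads, only the groups compared, DESeq2 1.42.0, limma 3.58.1, each library left out, and the run as replicate block. Since a number marks a shared run, it pairs the libraries; deviations of same-numbered libraries correlated by 0.0477 to 0.453 over 6 pairs of groups. The fits were also run on simulated counts, with the same spread at every locus and no difference between runs. The real libraries are unlike this, so that run does not show how often the fits miss differences here.

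Sequences and gene models are from RefSeq on TAIR10.1, whose nuclear sequence carries the same coordinates. By identifier 27997 nuclear loci of the table matched, and all overlap their RefSeq model, but only 6035 have the same start and end. Each member differs from its RefSeq model in start, end or both. Coding sequences were aligned globally with Biopython 1.88 (match 2, mismatch -1, gap -5 and -0.5, free ends). For AT5G46490 the nearest annotated transcript was used. Named genes were the members, HEN2, neighbours within 10 kb called between genotypes, called members of the pathway lists (otherwise up to the first 4) and the 5 loci most like RPS6. A called gene of the lists is not reported here. The members and lists were chosen with earlier results of these data known. Left out were the authors' own tests.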

Additional observations from a re-analysis of the deposited data

How the results depend on the processing

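The absence of a genotype call held in every alternative: edgeR, DESeq2 and limma settings gave 0 members for smn2 against WT in gene reads, intron reads and intron relative to exon reads. The number of members called at 4 h in smn2 (1) became 0 with RLE normalization, 0 with only the 2 groups compared, 0 with DESeq2, and ranged from 0 to 1 with a library left out. At 4 h in WT (0) it became 1 with the run as a replicate block, and ranged from 0 to 1 with a library left out. Both movements are AT5G46450. The pairing by run changed no other call of a member. Among the other genes named with this alternative run, it added AT3G44400 of the RPP1 cluster between genotypes (adjusted p = 0.0435).

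Signs of values that passed no test turned with single libraries. For gene reads the values with a library left out ranged from -0.377 to 0.252 for AT5G46260 at 0 h between genotypes (0.002 with only the 2 groups compared), -0.218 to 0.747 for AT5G46490 at 0 h, -0.406 to 0.082 for VICTL and -0.477 to 0.61 for VICTR at 4 h. For 4 h against 0 h in WT they ranged from -0.244 to 0.086 for AT5G46270 and -0.01 to 0.791 for AT5G46490. For intron reads the ranges between genotypes were -0.05 to 0.674 at 4 h and -0.127 to 0.233 for the mean in RPS6, -0.835 to 0.069 in AT5G46270 and -0.643 to 0.086 in AT5G46450. For intron relative to exon reads they were -0.584 to 0.248 at 0 h and -0.225 to 0.191 for the mean in RPS6, -0.731 to 0.12 in AT5G46270 and -0.565 to 0.241 in AT5G46450. The cause was not tested.

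A fit without a library leaves 1 group with a single sample, which is assumed to vary like the others. With 2 libraries per group and 9 to 37 intron reads, RPS6 intron values are limited by depth, and VICTR and VICTL by 11 to 89 gene reads.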
